A study of Mus musculus with 5 samples.

Results

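The nuclear-encoded genes of respiratory complex I were taken as every gene listed in all 5 expression tables whose symbol starts with Nduf, and 47 of the 13711 shared genes met this rule. By role, 7 encode core subunits, 10 accessory subunits of the matrix arm and 20 accessory subunits of the membrane arm, 37 subunits in all. A further 8 (Ndufaf1 to Ndufaf8) encode assembly factors. Ndufa4 and Ndufa4l2 were kept apart, because the NDUFA4 protein is now placed with cytochrome c oxidase and Ndufa4l2 encodes a relative of it. The symbol rule also takes in Ndufab1, whose product doubles as the mitochondrial acyl carrier protein, and Ndufb1-ps, which the annotation types as a bidirectional promoter lncRNA. The sections came from wild-type C57BL/6 mice operated on at postnatal day 1, either with myocardial infarction (MI), from a tied left anterior descending artery, or with a sham operation. The labels give 1 level for all sections, 200 µm below the suture. For the sham hearts, which had no ligation, the study took the equivalent position. There was 1 section each of sham at day 3, MI at day 3 and sham at day 7 after surgery, and there were 2 sections of MI at day 7. Each was profiled with Visium, in which a grid of barcoded spots, each wide enough for several cells, takes up polyadenylated RNA.

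Complex I (NADH:ubiquinone oxidoreductase) takes electrons from NADH and passes them through a flavin and iron-sulfur clusters in its matrix arm to ubiquinone, while its membrane arm pumps protons. The core of the membrane arm is encoded by the mitochondrial mt-Nd genes and the other subunits by the nuclear Nduf genes, so both genomes have to supply parts. Heart muscle is rich in mitochondria, and around birth cardiomyocytes shift from glycolysis toward the oxidation of fatty acids.

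Promoters are shown because genes of the respiratory chain are known to share binding sites of a few factors. Of the 47 genes, 40 had an entry in the RefSeq promoter table (GRCm38.p6), a window from 250 bases before to 50 bases after a transcription start. Both strands were searched. The core word of nuclear respiratory factor 1, of 10 bases with 1 free position, was found in 9 of the 40 genes (22.5%), against 5.19% of all 27025 genes in the table. This factor is the gene Nrf1, and not Nfe2l1, the gene that the study itself calls Nrf1. The word AAGATGGCG of YY1 was in 6 of 40 (15%), against 1.64% of all. The word ACCGGAAGT of the ETS family was in 1 of 40 (2.5%), against 1.21%, and TCAAGGTCA of the estrogen-related receptors in 0 of 40, against 0.466%. These are matches of letters in a window and not measured sites. The 3 promoters below were chosen because Ndufb4 holds 3 matches to the first word, Ndufs6 holds 1 match to the first word and 1 to the YY1 word, and Ndufs7 holds 1 match to the YY1 word. Capitals mark the matches, none of which overlap here.
Ndufb4, minus strand, chr16:37654319-37654618: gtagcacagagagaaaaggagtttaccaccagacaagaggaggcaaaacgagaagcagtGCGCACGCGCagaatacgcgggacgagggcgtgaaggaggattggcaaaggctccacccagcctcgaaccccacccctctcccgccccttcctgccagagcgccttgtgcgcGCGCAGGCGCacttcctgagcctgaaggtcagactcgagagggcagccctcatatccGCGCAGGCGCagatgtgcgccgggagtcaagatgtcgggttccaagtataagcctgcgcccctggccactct
Ndufs6, minus strand, chr13:73328433-73328732: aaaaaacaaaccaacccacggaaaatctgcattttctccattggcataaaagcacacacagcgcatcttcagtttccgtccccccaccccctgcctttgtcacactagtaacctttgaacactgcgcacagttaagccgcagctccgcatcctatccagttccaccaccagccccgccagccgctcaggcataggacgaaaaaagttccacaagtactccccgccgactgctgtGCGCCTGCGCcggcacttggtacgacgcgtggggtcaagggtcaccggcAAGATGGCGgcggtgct
Ndufs7, plus strand, chr10:80249199-80249498: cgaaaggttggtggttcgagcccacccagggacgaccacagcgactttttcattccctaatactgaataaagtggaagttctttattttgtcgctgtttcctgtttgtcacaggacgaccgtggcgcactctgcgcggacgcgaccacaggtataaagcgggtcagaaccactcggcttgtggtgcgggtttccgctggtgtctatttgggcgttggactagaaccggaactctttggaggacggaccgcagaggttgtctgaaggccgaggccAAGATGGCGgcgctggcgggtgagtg

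Levels are given as CPM, a gene's value in a spot over the spot's total without the mitochondrially encoded (mt-) genes, times 1000000, averaged over the spots of a section. Visium counts a captured RNA once, so CPM was not divided by gene length, and levels of different genes are not compared. Where 5 values stand in a row they are in section order, namely sham day 3, MI day 3, sham day 7, and replicates 1 and 2 of MI day 7. The sections had 376 to 960 spots and 11396022 to 37492530 raw UMIs. Barcodes mark fixed positions of the grid, and a section shared 586 to 1018 of them with the others, summed over pairs. The sham day 3 table held raw counts and the other 4 sctransform-corrected counts, so contrasts that use this section also cross a difference in processing. The mt- genes took 24.7% of the values in replicate 1 of MI day 7 and 13.8% to 15.8% elsewhere. Away from the tissue lay 9 spots of MI day 3 and 5 and 3 spots of MI day 7, replicates 1 and 2. Without them the members called went from 40 to 39 in fibroblast-dominant spots and from 3 to 2 in endothelial-dominant spots, and other counts of members called were the same.

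All 47 genes passed the filter on low values. Mean levels over the sections ran from 384 CPM (Ndufb3) to 1716 CPM (Ndufc1) among the 37 subunits and from 26.0 CPM (Ndufaf6) to 106 CPM (Ndufaf8) among the 8 assembly factors. In the raw counts of sham day 3, Ndufaf6 rested on 271 UMIs and Ndufc1 on 15984. The summed level of the subunits was 32378, 26900, 38249, 35432 and 35058 CPM in section order. MI day 3 was thus the lowest and sham day 7 the highest, with both MI day 7 sections between sham day 3 and sham day 7. Of the 47 genes, 44 were lowest in MI day 3, against 16.5% of all genes tested, and 38 were highest in sham day 7, against 10.9%. The exceptions to the first were Ndufa7, Ndufaf4 and Ndufa4l2. The ratio of the summed subunits to the summed 43 nuclear genes of complexes II to V was 0.339, 0.329, 0.344, 0.331 and 0.341 in section order, so the sections lay close together on this scale.

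MI was compared with sham over both days, with day as a covariate, to ask whether infarction goes with a change in the complex I genes. No member passed the test (0 of 47, limma, Benjamini-Hochberg over 13149 genes, smallest adjusted p = 0.276), while 0.0% of all genes were called lower and 0.00761% higher. Without adjustment 11 members were lower in MI and 0 higher (p under 0.05), against 426 lower and 987 higher of all 13149 genes. The estimates of 45 of 47 were below 0, with a median log2 difference of -0.16 against 0.018 for all genes. Of the 47, 38 lay below the sham section of their day in all 3 MI sections, against 17.7% of all genes, and 0 lay above it in all 3, against 24.2%. The median was -0.091 without MI day 3 and likewise without sham day 3.

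Among the core subunits, Ndufs1, which carries iron-sulfur clusters, was at 473, 431, 549, 563 and 509 CPM in section order. At day 7 the sham value lay between both MI values. Ndufv1, the subunit that binds NADH and the flavin, was at 742, 654, 854, 877 and 819 CPM, with the same overlap at day 7. The log2 differences across days were -0.077 ± 0.092 (SE) for Ndufs1 and -0.084 ± 0.097 for Ndufv1. The lowest core estimate was that of Ndufs7, which carries the last iron-sulfur cluster before ubiquinone, at -0.27 ± 0.10 (limma, adjusted p = 0.413).

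Of the accessory subunits, Ndufa5 of the matrix arm was at 1283, 922, 1620, 1547 and 1398 CPM, below sham in all 3 MI sections (log2 difference -0.28 ± 0.12, limma, adjusted p = 0.484). Ndufb1-ps was at 1490, 1175, 1662, 1229 and 1348 CPM, again below sham throughout (-0.36 ± 0.10, limma, adjusted p = 0.325). Ndufb8, a membrane arm subunit often used as a marker of assembled complex I, was at 1294, 1003, 1572, 1317 and 1437 CPM (-0.27 ± 0.11), and Ndufab1 differed by -0.23 ± 0.10. Ndufa13, also known as Grim-19, was the 1 subunit with an estimate above 0 (0.016, SE 0.0997), at 1049, 1001, 1313, 1406 and 1368 CPM.

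The lowest estimate of the 47 was that of the assembly factor Ndufaf6. It was at 27.5, 18.8, 33.8, 23.7 and 26.1 CPM, below sham in all 3 MI sections (log2 difference -0.47 ± 0.11, limma, adjusted p = 0.276). Ndufaf1, which acts early in building the membrane arm, was at 42.4, 38.0, 48.8, 46.9 and 49.1 CPM and overlapped at day 7. All 8 assembly factors had estimates below 0 (median -0.15), 3 of them with an unadjusted p under 0.05. Of 12 other assembly factors of complex I, 10 had estimates below 0, and of the 43 genes of complexes II to V 41 did (median -0.14). None of either list passed.

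**Figure D1:**
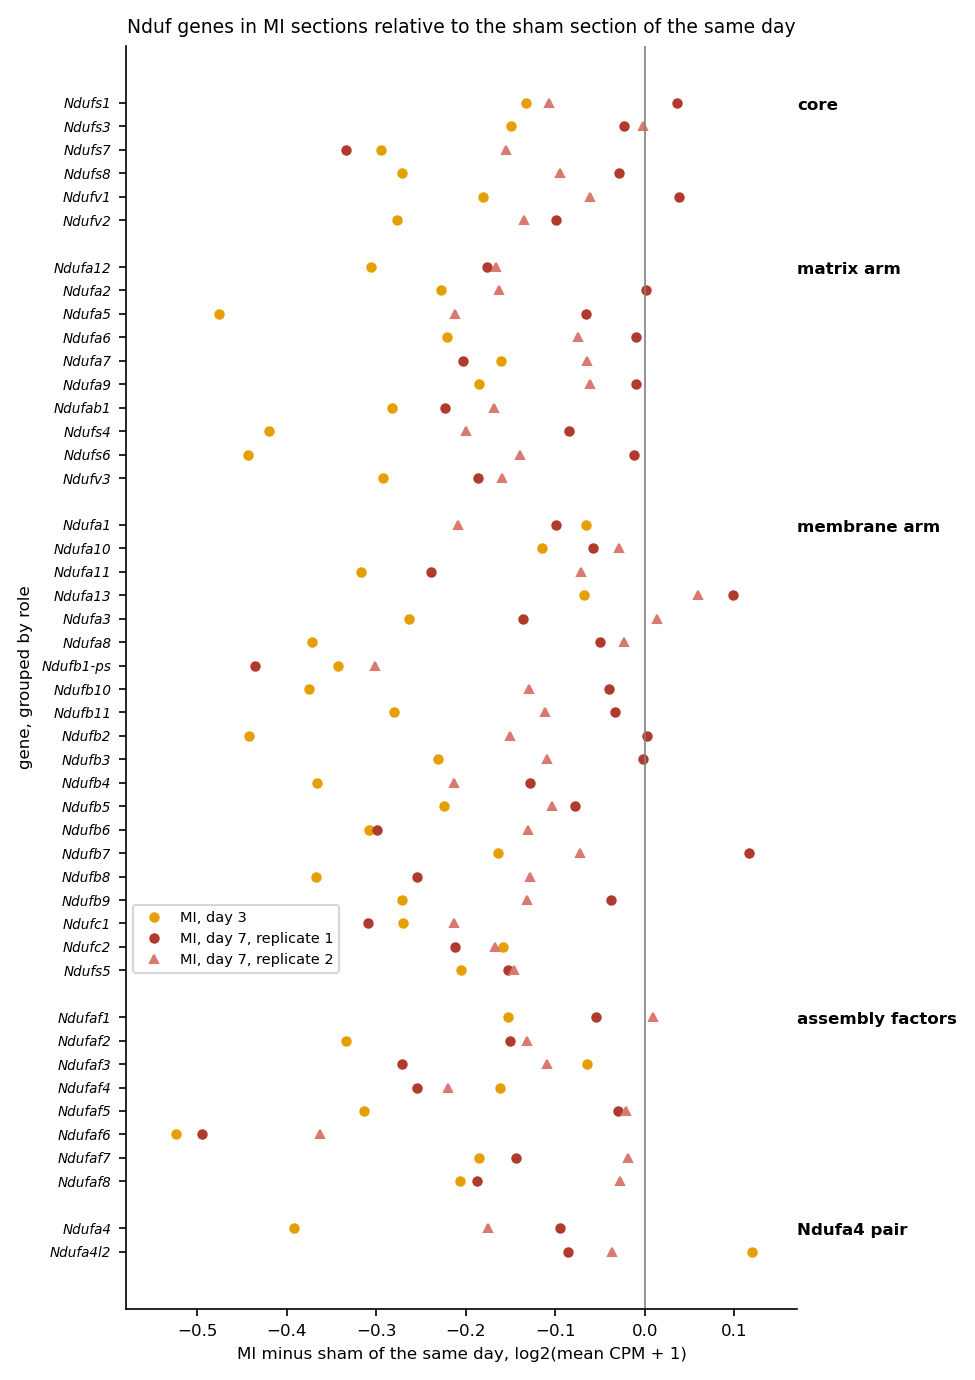
Each line of points is 1 of 46 Nduf genes, grouped by role, and the x axis gives log2(mean CPM + 1) in an MI section minus that in the sham section of the same day. Orange circles are MI day 3, and dark red circles and light red triangles are replicates 1 and 2 of MI day 7. At day 3 all genes drawn lie left of 0 except Ndufa4l2 (0.12).

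At day 3, with 1 section per operation and no test, 46 of 47 members were lower in MI, with a median log2 difference of -0.27 against 0.0028 for all genes. The difference reached 0.25 or more downward in 25 of 47 (53.2%), against 16.8% of all genes, and upward in 0, against 21.8%. The members furthest below sham were Ndufaf6 (-0.52), Ndufa5 (-0.48) and Ndufs6 (-0.44), a zinc-binding subunit of the matrix arm. Ndufa4l2 was above it (0.12). Markers of other cells moved with these values. The 8 macrophage markers summed to 145 CPM in sham and 1108 CPM in MI, with all 8 higher, and the 5 blood markers to 5349 and 13340 CPM. The 6 fibroblast markers summed to 4212 CPM in sham and 5662 CPM in MI, with 5 of 6 higher (median 0.48). The 8 cardiomyocyte markers summed to 59500 CPM in sham and 49665 CPM in MI, with all 8 lower, and no marker of these lists was at 0. Their part in the difference was not tested, and with several cells to a spot, fewer cells of a type and less RNA per cell cannot be told apart.

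At day 7 the median log2 difference of the members was -0.091 against 0.029 for all genes, with 45 of 47 estimates below 0. By limma 0 of 47 passed, against 0.0% of all genes in either direction, and Ndufaf6 (-0.43 ± 0.16) was the 1 member with an unadjusted p under 0.05, against 199 lower and 473 higher of all 13149 genes. Ndufb1-ps (-0.37 ± 0.16) and Ndufc1 (-0.26 ± 0.17), a small membrane arm subunit, followed, and Ndufa13 (0.079 ± 0.154) and Ndufb7 (0.022 ± 0.156) had estimates above 0. With mt- genes kept in the total 0 members passed, while the calls over all genes went from 0 to 24 higher and 6 lower. Against the shared sham section, replicate 1 gave a median of -0.085 and replicate 2 of -0.13. At this day the summed cardiomyocyte markers were 64397 CPM in sham and 70316 and 61084 CPM in MI, on both sides of sham, and other lists moved. All 6 fibroblast markers had estimates above 0 (5 with an unadjusted p under 0.05, median 0.43), and they summed to 4786 CPM in sham and 6256 and 7479 CPM in MI. All 8 macrophage markers did too (7 with an unadjusted p under 0.05, median 0.76), at 155 CPM in sham and 261 and 333 CPM in MI, and so did all 5 blood markers, at 8259 CPM in sham and 11393 and 12920 CPM in MI. None of these markers passed the adjusted threshold, and their part in the difference was not tested. Whether the difference was larger at day 3 than at day 7 was not tested.

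Within spots dominated by the cardiomyocyte state CM1 (the assignment is described further on), MI and sham were compared in the same way. By limma 0 of 47 members passed, against 0.0231% of all genes lower and 0.1% higher, and 5 of them, all lower in MI, had an unadjusted p below 0.05, against 429 lower and 907 higher of all 12981 genes. Over the 47 the median was -0.14 against 0.023, with 44 of 47 estimates below 0. The lowest were those of Ndufaf6 (-0.39 ± 0.13), Ndufb1-ps (-0.30 ± 0.10) and Ndufs7 (-0.27 ± 0.10), and the highest that of Ndufa4l2 (0.14 ± 0.11). At day 3 alone the median was -0.18 in these spots, against -0.27 over all spots. Of the cardiomyocyte markers 4 of 8 had estimates below 0, while all 6 fibroblast markers (1 of which rose) and all 8 macrophage markers had estimates above 0. The 5 blood markers summed to 4611, 13469, 7630, 12025 and 12370 CPM in section order, above the sham of the day in each MI section. The part of these markers in the difference was not tested.

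Day 7 was compared with day 3, with operation as a covariate, because the heart matures over these days. All 37 subunits had estimates above 0, from 0.042 (Ndufa7) to 0.53 (Ndufa5), and so did 46 of the 47 members, with a median log2 difference of 0.33 against -0.13 for all genes. None passed (0 of 47, limma, smallest adjusted p = 0.0686), while 0.54% of all genes were called higher and 0.844% lower. Without adjustment 38 members were higher and 0 lower (p under 0.05), against 756 higher and 2599 lower of all 13149 genes. Median-of-ratios size factors in place of CPM moved the median of all genes from -0.13 to -0.0061 and the calls over all genes from 71 higher and 111 lower to 160 higher and 71 lower. On that scale 5 members rose (Ndufa10, Ndufa4l2, Ndufb10, Ndufs3 and Ndufs8). In 35 of 47 genes all 3 day 7 sections lay above both day 3 sections, against 9.33% of all genes, and in 0 did they lie below both, against 31.8%.

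The membrane arm subunit Ndufb10 was at 824, 635, 1028, 1000 and 939 CPM in section order, with the days apart (log2 difference 0.48 ± 0.11, limma, adjusted p = 0.0819). Ndufa5 (0.53 ± 0.12, adjusted p = 0.0882) and Ndufa4l2 (0.47 ± 0.09, adjusted p = 0.0686) were the other members with the highest estimates by limma. Among the assembly factors 7 of 8 had estimates above 0 (median 0.21). The exception was Ndufaf5 (-0.026 ± 0.104), which hydroxylates an arginine of a core subunit. The 43 genes of complexes II to V had a median of 0.30 with 0 called. The ratio of the summed subunits to the summed cardiomyocyte markers was 0.544, 0.542, 0.594, 0.504 and 0.574 in section order, and on this scale the days overlapped. Markers of other cells moved with the days. All 8 macrophage markers had estimates below 0 (median -0.84, 5 with an unadjusted p under 0.05), though their sums of 155 to 333 CPM at day 7 lay between the 145 and 1108 CPM of day 3. Both endocardial markers were below 0 as well (median -0.92, both with an unadjusted p under 0.05), 1 of 2 epicardial markers fell, 1 of 6 fibroblast markers rose, and 7 of 8 cardiomyocyte markers had estimates above 0 (median 0.16) with 0 called. Their part in the difference was not tested.

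The study scored every spot for 11 cell types by label transfer from single-nucleus data, and a spot was assigned here to the type with the highest score. The scores come from the same expression values, so differences between classes are not independent of them. The classes tested had at least 10 spots in every section: the cardiomyocyte states CM1 and CM4, fibroblasts (FB), endothelial cells (EC), endocardial cells (EndoEC) and macrophages. For the same reason the markers describe the classes and do not check the labels. In FB-dominant spots 6 of 6 fibroblast markers rose, and in EC-dominant spots 4 of 5 endothelial markers. In EndoEC-dominant spots 2 of 2 measured endocardial markers rose, and in macrophage-dominant spots 6 of 8 macrophage markers. Markers of some lists also rose in other classes, as given below. Each class was compared with the CM1-dominant spots of the same section, with section as a block, so the comparisons share those spots.

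The summed subunits were highest in CM1-dominant spots in each section among these 6 classes, at 36017 ± 3741 CPM (SD, n = 5 sections). They were at 32966 ± 4994 CPM in EC-dominant, 32545 ± 5474 CPM in CM4-dominant and 30689 ± 5683 CPM in EndoEC-dominant spots, and at 28618 ± 5834 CPM in FB-dominant and 27906 ± 10109 CPM in macrophage-dominant spots. Neighbours in this order differed by less than the SD between sections. As a ratio to CM1-dominant spots of the same section, the level was 0.911 ± 0.054 in EC-dominant, 0.899 ± 0.070 in CM4-dominant, 0.846 ± 0.078 in EndoEC-dominant, 0.789 ± 0.101 in FB-dominant and 0.762 ± 0.232 in macrophage-dominant spots. CM5-dominant spots, too few in sham day 3 for a test, had ratios of 0.958 to 1.02, on both sides of CM1.

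**Figure D2:**
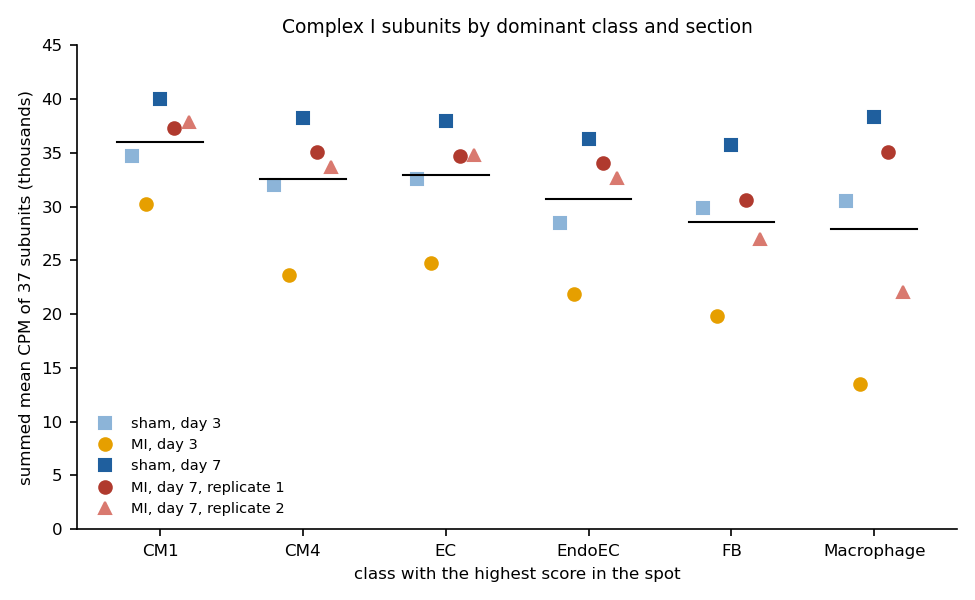
The y axis gives the summed mean CPM of the 37 nuclear subunits in units of 1000 CPM, and the x axis the class with the highest score in a spot. Each marker is 1 section and the black line the mean of the 5 sections. Within each section the CM1-dominant spots sit highest, and MI day 3 is the lowest section in every class.

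In FB-dominant spots the complex I genes were lower together. By limma 39 of 47 members fell and 1 rose, against 5.72% of all genes called lower and 14.7% higher, with a median log2 difference of -0.34 against 0.078. Of the subunits, 7 of 7 core, 10 of 10 matrix arm and 19 of 20 membrane arm genes fell, the exception being Ndufa11 (-0.23 ± 0.08, limma, adjusted p = 0.0665). All 37 subunits lay below CM1 in all 5 sections, and 40 of 47 members did, against 9.62% of all genes. Without replicate 2 of MI day 7, 17 members were lower and 1 higher. Over all genes the calls went from 1986 higher and 773 lower to 1416 higher and 1506 lower with median-of-ratios size factors, where 42 members fell, and to 3154 higher and 458 lower with mt- genes kept in the total, where 28 fell.

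The furthest falls were in Ndufb10 (-0.48 ± 0.09), Ndufs1 (-0.45 ± 0.08), Ndufa10 (-0.44 ± 0.08), Ndufs6 (-0.44 ± 0.09) and Ndufv1 (-0.43 ± 0.07), with limma adjusted p from 0.00204 to 0.00555. Ndufs1 was at 411, 314, 504, 441 and 367 CPM in FB-dominant and at 514, 494, 572, 605 and 566 CPM in CM1-dominant spots, lower in each section. Ndufb8 (-0.37 ± 0.08) and Ndufab1 (-0.39 ± 0.09) fell as well. By section the median of the subunits was -0.21, -0.61, -0.17, -0.30 and -0.48, further below 0 in each MI than in either sham section, a contrast that was not tested. FB-dominant spots numbered 22 in MI day 3 and 94 to 266 elsewhere.

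Of the 8 assembly factors, Ndufaf4 (-0.37 ± 0.08, limma, adjusted p = 0.00911) and Ndufaf6 (-0.41 ± 0.13, adjusted p = 0.0491) fell in FB-dominant spots, and the median of the 8 was -0.15. Their SEs ran from 0.081 to 0.156, against 0.064 to 0.094 for the subunits, and the contrast with the subunits was not tested. Of the 12 other assembly factors 7 fell, of the 43 genes of complexes II to V 41 fell (median -0.39), and of 10 regulators of mitochondrial genes 5 fell. Cell type markers moved with them. In FB-dominant spots 6 of 8 cardiomyocyte markers fell (median -0.45), their sum running from 33561 to 60034 CPM against 56823 to 74228 CPM in CM1-dominant spots, while 6 of 6 fibroblast, 7 of 8 macrophage and 2 of 2 endocardial markers rose. The part of these cells in the fall of the complex I genes was not tested.

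In EndoEC-dominant spots 33 of 47 members fell by limma and 0 rose, against 4.12% of all genes lower and 6.79% higher, with a median of -0.25 against 0.021. The 33 were 32 of 37 subunits and Ndufa4. Of the assembly factors 0 of 8 passed, 3 with an unadjusted p under 0.05, against 1216 lower and 1709 higher of all 13529 genes. Below CM1 in all 5 sections were 39 of 47, against 7.63% of all genes. Among those that passed, the furthest falls were in Ndufb7 (-0.34 ± 0.07), Ndufs6 (-0.33 ± 0.06), Ndufb10 (-0.32 ± 0.06), Ndufa10 (-0.32 ± 0.06) and Ndufb11 (-0.31 ± 0.07), with limma adjusted p from 0.000449 to 0.00193. Ndufb10 was at 669, 507, 937, 944 and 869 CPM in EndoEC-dominant and at 908, 738, 1094, 1068 and 1023 CPM in CM1-dominant spots, lower in each section. The count was 13 without sham day 3, 16 with at least 40 spots of both classes and 15 with mt- genes kept in the total. Over all genes the calls went from 918 higher and 558 lower to 1283 higher and 334 lower with mt- genes kept, and to 731 higher and 826 lower with median-of-ratios size factors, where 39 members fell. All 8 cardiomyocyte markers fell in these spots and all 6 fibroblast markers rose.

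In EC-dominant spots 3 of 47 members fell by limma and 0 rose, against 0.193% of all genes lower and 0.84% higher. They were Ndufb9 (-0.21 ± 0.05, adjusted p = 0.0244), Ndufb4 (-0.24 ± 0.06, adjusted p = 0.0407) and Ndufv2 (-0.21 ± 0.05, adjusted p = 0.0466), a core subunit with an iron-sulfur cluster. The median of the members was -0.12 against 0.033, all 37 subunits had estimates below 0, and 31 of 47 members lay below CM1 in all 5 sections, against 3.9% of all genes. Without sham day 7, without either replicate of MI day 7, with mt- genes kept in the total or with a pseudocount of 0.1 CPM, 0 members were called, and 1 was without sham day 3 or without the filter on low values. With median-of-ratios size factors 13 members fell and 0 rose, and the calls over all genes went from 113 higher and 26 lower to 56 higher and 116 lower. Cardiomyocyte markers moved with the members, with all 8 estimates below 0 (median -0.13, 1 called lower) and a summed level below CM1 in all 5 sections, at 0.919 ± 0.056 times CM1 against 0.911 ± 0.054 for the subunits. The mural markers summed to 1.15 ± 0.14 times CM1, above it in all 5 sections, and 2 of 7 rose. Their part in the difference was not tested.

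In macrophage-dominant spots the sections differed most. No member passed (0 of 47, limma, smallest adjusted p = 0.286), against 0.0% of all genes lower and 0.171% higher, and 33 members, all lower, had an unadjusted p below 0.05, against 778 lower and 1140 higher of all 13476 genes. All 47 estimates were below 0, with a median of -0.45 against -0.028, and 36 lay below CM1 in all 5 sections, against 6.08% of all genes. The lowest were the assembly factors Ndufaf6 (-0.78 ± 0.34), Ndufaf4 (-0.76 ± 0.28) and Ndufaf7 (-0.72 ± 0.25). These genes have low levels, with Ndufaf6 at 24.6, 13.3, 28.7, 20.2 and 4.27 CPM in section order in these spots. The Ndufaf6 estimate ran from -0.93 to -0.20 under the alternatives run. By section the subunit median was -0.18, -1.17, -0.064, -0.096 and -0.78, so MI day 3 and replicate 2 of MI day 7 stood apart. The macrophage markers of these spots summed to 455, 9773, 471, 819 and 3936 CPM, and their cardiomyocyte markers to 58051, 21709, 63388, 69566 and 29702 CPM, with the same sections apart. Their fibroblast markers summed to 4734, 14833, 4086, 5312 and 24681 CPM, again with these sections apart. There were 26, 20, 70, 21 and 13 such spots.

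**Figure D3:**
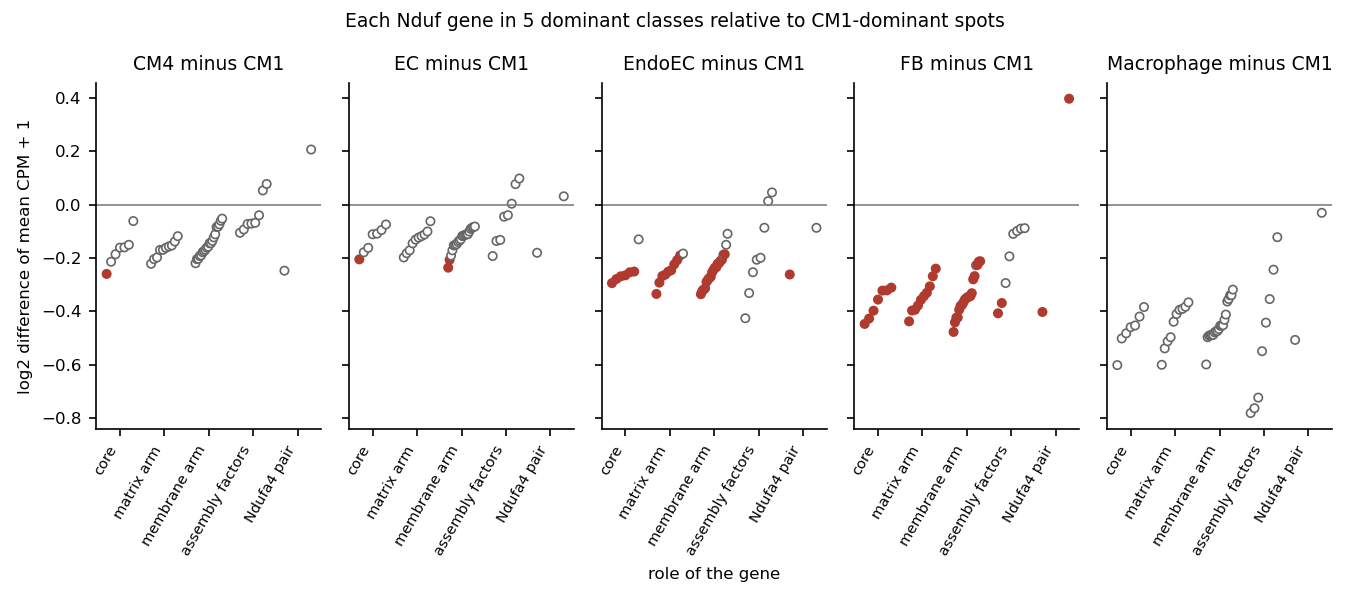
Each point is 1 Nduf gene and the y axis gives the fitted difference of log2(mean CPM + 1) between a dominant class and CM1-dominant spots over 5 sections, by role on the x axis. Filled points passed the adjusted threshold. The 37 subunits lie below 0 in all 5 panels, and in FB-dominant spots 39 genes passed below 0 and Ndufa4l2 above it.

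CM4 is a cardiomyocyte state with an immature signature that the study follows through regeneration. In CM4-dominant spots 1 of 47 members fell by limma and 0 rose, against 0.0892% of all genes lower and 1.2% higher, with a median of -0.15 against 0.041. The gene was Ndufv1 (-0.26 ± 0.06, adjusted p = 0.0459), at 695, 568, 835, 813 and 709 CPM in CM4-dominant and at 838, 740, 895, 942 and 895 CPM in CM1-dominant spots. It was lower in all 5 sections, and the call was lost without either replicate of MI day 7, MI day 3 or sham day 3, with mt- genes kept in the total, with both mt- and haemoglobin genes left out of it and with a pseudocount of 0.1 CPM (0 members called). All 37 subunits had estimates below 0, 26 of them with an unadjusted p under 0.05, against 598 lower and 1251 higher of all 13447 genes. Below CM1 in all 5 sections were 27 of 47 members, against 4.42% of all genes. Ndufa4 (-0.25 ± 0.07), Ndufa5 (-0.22 ± 0.07) and Ndufs1 (-0.21 ± 0.07) did not pass. The assembly factors had estimates from -0.11 to 0.077, and 0 of 8 passed or had an unadjusted p under 0.05.

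Fibroblast markers moved with the CM4-dominant spots, where 5 of 6 rose and the list summed to 4908 to 7838 CPM against 2741 to 4558 CPM in CM1-dominant spots. The 8 cardiomyocyte markers had estimates below 0 (median -0.25) with 0 called, and 2 of 8 macrophage markers rose. Of the 43 genes of complexes II to V, 42 had estimates below 0 (median -0.19) and 0 passed. The part of the fibroblasts in the CM4 difference was not tested. Median-of-ratios size factors moved the calls over all genes from 161 higher and 12 lower to 127 higher and 69 lower.

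Whether the CM4 minus CM1 difference itself differed between MI and sham was tested on the values per section. By limma 0 of 47 members passed, against 0.186% of all genes in each direction, and without adjustment 3 were lower and 1 higher (p under 0.05), against 353 lower and 1100 higher of all 13447 genes. The median was -0.080 against 0.098 for all genes. With mt- genes kept in the total both moved up, to 0.11 and 0.28, and the calls over all genes went from 25 higher and 25 lower to 210 higher and 20 lower. With median-of-ratios size factors they were 23 higher and 36 lower. The highest estimates were those of the assembly factors Ndufaf7 (0.72 ± 0.24, limma, adjusted p = 0.265), Ndufaf4 (0.22 ± 0.18) and Ndufaf2 (0.20 ± 0.19). The lowest were those of the membrane arm subunits Ndufb4 (-0.32 ± 0.13, adjusted p = 0.367), Ndufa3 (-0.30 ± 0.13) and Ndufa1 (-0.26 ± 0.12).

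The mt-Nd genes, the subunits from the mitochondrial genome, differed in the same test. Their median CM4 minus CM1 difference was 0.69, -0.87, 0.43, -0.61 and -0.26 in section order, above 0 in both sham sections and below 0 in all 3 MI sections, where the nuclear subunits were at -0.14, -0.38, -0.059, -0.086 and -0.16. Of the 7 mt-Nd genes 6 were lower in MI by limma (median -1.26), against 0.186% of all genes called lower (median of all genes 0.098). The calls leaned on both sham sections. With 1 sham section left, the median was -1.11 without sham day 3 and -1.39 without sham day 7. Whether the difference was particular to the mt-Nd genes among the mt- genes was not tested. Of the 5 blood markers 4 were lower as well (median -1.67). A test of nuclear against mitochondrial subunits was not run.

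**Figure D4:**
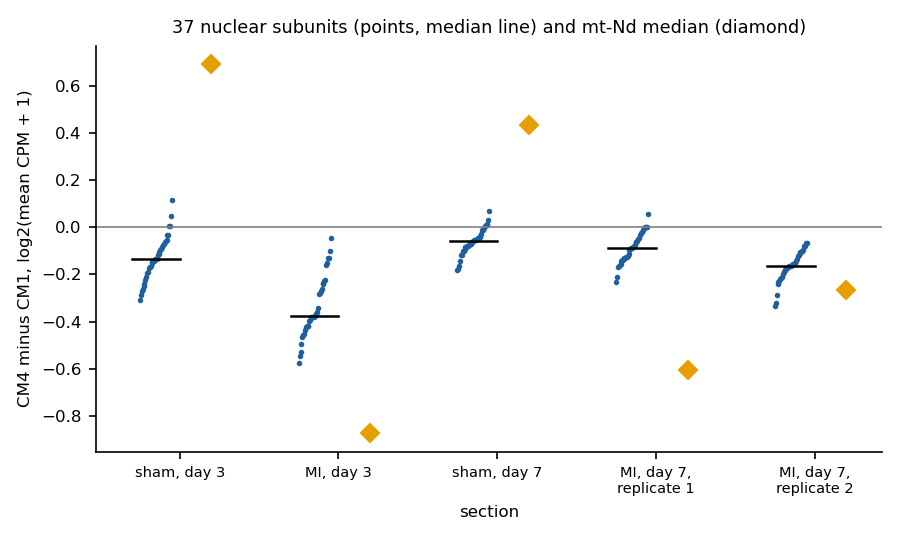
The y axis gives CM4-dominant minus CM1-dominant spots as a difference of log2(mean CPM + 1), and the x axis the 5 sections. Points are the 37 nuclear subunits with their median as a line, below 0 in each section. The diamond is the median of the 7 mt-Nd genes, above 0 in both sham sections and below 0 in all 3 MI sections.

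The spots were also described without classes. The ratio of the 95th to the 5th percentile of the summed subunits over spots was 1.42, 2.28, 1.32, 1.35 and 1.94 in section order. Moran's I, which is near 0 for scattered levels and rises when neighbouring spots are alike, was 0.312, 0.779, 0.327, 0.517 and 0.635, higher in each MI than in either sham section, with no test. The subunit values before scaling averaged 573, 795, 735, 1433 and 616 per spot. The part of this depth, and of the raw counts in sham day 3, was not tested. Within sections, Spearman's rho over spots of the summed subunits was 0.792 to 0.937 with the genes of complexes II to V, 0.561 to 0.784 with the cardiomyocyte markers and -0.688 to -0.457 with the fibroblast markers. These measures share the total of each spot, and spots are not independent.

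**Figure D5:**
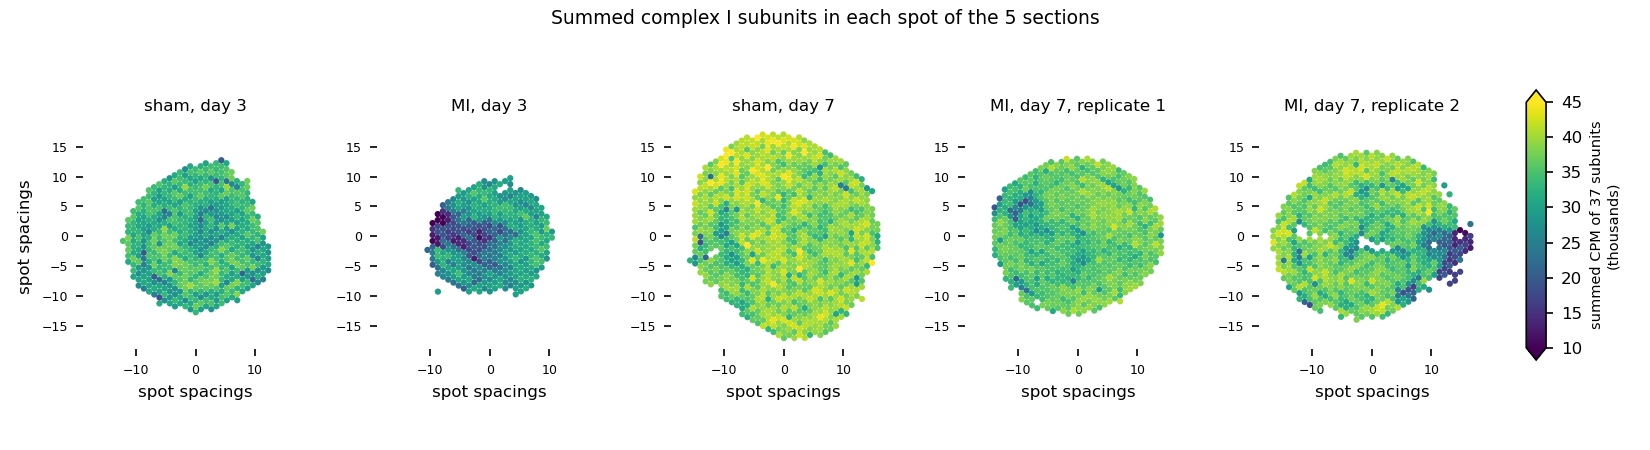
Each dot is a spot, placed by its distance from the section's centre in spot spacings, and the colour gives the summed CPM of the 37 subunits in units of 1000 CPM on 1 scale for all 5 sections. Spots detached from the tissue are not drawn. Low spots lie together in MI day 3 and at an edge in both MI day 7 sections, fainter in replicate 1.

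Ndufa4 followed the subunits. It was at 3662, 2789, 4492, 4207 and 3977 CPM in section order, below sham in all 3 MI sections (log2 difference across days -0.25 ± 0.14, limma, adjusted p = 0.581), and it fell in FB-dominant (-0.40 ± 0.10, adjusted p = 0.017) and EndoEC-dominant spots (-0.26 ± 0.07, adjusted p = 0.00791). Ndufa4l2, known as a gene of hypoxia and of pericytes, was at 43.4, 47.2, 65.0, 61.2 and 63.3 CPM. It was the 1 member that rose in FB-dominant spots (0.40 ± 0.10, limma, adjusted p = 0.0121), at 60.4, 71.2, 75.2, 75.1 and 61.7 CPM against 38.8, 47.3, 57.5, 56.6 and 61.9 CPM in CM1-dominant spots. It was higher in 4 of 5 sections and level in replicate 2 of MI day 7. In CM4-dominant spots it differed by 0.21 ± 0.09, above CM1 in all 5 sections, and did not pass (limma, adjusted p = 0.332).

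Mural markers moved with Ndufa4l2 in FB-dominant spots, where 4 of 7 rose and 1 fell. In CM4-dominant spots they summed to 1.26 ± 0.14 times CM1, above it in each section. Their part in the Ndufa4l2 differences was not tested. In the 10% of spots with the highest Pericyte/SMC score, Ndufa4l2 had 1.28 to 1.43 times its level in the other spots of the section, and the pericyte marker Rgs5 1.31 to 1.46 times. Ndufa4 had 0.91 to 1.11 times and Ndufs1 0.89 to 1.18 times, on both sides of 1. These ratios are a description, since the scores come from the same values.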

How the data were processed

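Visium data of 5 sections were analysed. According to the labels and the methods, alignment was to GRCm38 (mm10) with Space Ranger, and sctransform in Seurat followed. The authors deposited raw counts for sham day 3 and, for the other 4 sections, depth-corrected counts from sctransform, treated here as a score. The deposited metadata gave raw UMI counts, spot positions (image pixels, unit signal) and cell type scores (a fraction from 0 to 1). A count test was therefore not used.

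Spots were scaled to CPM over the 13711 shared genes, mt- genes left out of the total, and averaged per section or per section and class. Genes with at least 1 CPM in at least 2 profiles entered limma 3.58.1 (R 4.3.3) on log2(CPM + 1), which understates changes of low genes, with a mean-variance trend, two-sided, Benjamini-Hochberg adjusted over all genes, threshold 0.05. The fit was tested on simulated data. Residual degrees of freedom were 2 across days, 1 at day 7, 4 for classes and 3 for the CM4 interaction. Per the study, the replicates of MI day 7 are biologically independent and each other group is 1 biological sample, so the spread between replicates within a group rests on MI day 7 alone.

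Named genes were the members past the threshold where at most 10 passed, otherwise the 5 furthest rises and falls among them, or, where none passed, the 3 furthest each way at 20 CPM or more. Ndufs1, Ndufv1, Ndufb8, Ndufab1, Ndufa4, Ndufa4l2 and Ndufaf1 were a preset list, to be named whatever their values, and are given where they add to a result. The values of 1 member are not reported here. Other names were chosen after their values were seen. Members and lists were chosen with earlier results of these data known. Of 51 annotated Nduf genes (GENCODE, GRCm38) 4 were not in the shared tables. Ndufb2, Ndufb8 and Ndufb9 overlap exons of another gene on their strand, so their counts are uncertain. Alternatives were other totals and size factors, pseudocount, filter, summing over spots, spot and score minimums, no section block, each section left out and detached spots left out.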

Additional observations from a re-analysis of the deposited data

Results flagged for a closer look

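In 3 cases 1 of 5 sections stood apart from the others by Dixon's criterion, each time MI day 3. They were Ndufb8 in CM4-dominant minus CM1-dominant spots (-0.24 on the log2 scale), the median of the 37 subunits in EC-dominant minus CM1-dominant spots (-0.28) and Ndufab1 in EndoEC-dominant minus CM1-dominant spots (-0.55). The criterion was applied in each of the 5 class comparisons to the subunit median and to each gene of the preset list. Chance gives this in about 1 of 20 groups, so over all these groups a few cases are due by chance.

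For 2 members both MI sections of day 7 lay on the opposite side of sham from the MI section of day 3. Ndufa13 differed by -0.068 at day 3 and 0.079 at day 7 (mean of both MI sections), and Ndufa4l2 by 0.12 at day 3 and -0.061 at day 7. These differences between days were not tested.

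For the mt-Nd genes the CM4 minus CM1 difference itself differed between MI and sham, with a median of -1.26 on the log2 scale against 0.098 for all genes. The median ran from -1.40 to -1.03 under the alternatives run, with 1 of 7 called without sham day 3, 4 of 7 without sham day 7 and 6 of 7 under the others.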

How the results depend on the processing

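No paired analysis across operations or days was possible, because the labels give no matching of sections between groups. Class comparisons had the section as a block, and without it 0 members were called in CM4-, FB-, EC- and EndoEC-dominant spots.

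Medians of the members moved on the log2 scale. With mt- genes kept in the total they were -0.20 across days, 0.27 for day 7 against day 3, -0.18 at day 7, -0.25 at day 3, -0.21 in CM1-dominant spots and 0.11 for the CM4 interaction, where the sign changed. With haemoglobin genes also left out they were -0.16 across days and -0.26 at day 3. With median-of-ratios size factors they were -0.20 across days, 0.47 for day 7 against day 3, -0.13 at day 7, -0.31 at day 3 and -0.17 in CM1-dominant spots. Summing over spots gave -0.18 across days and -0.29 at day 3. Leaving out 1 section at a time gave -0.27 to -0.091 across days, 0.24 to 0.38 for day 7 against day 3, -0.13 to -0.085 at day 7 and -0.18 to -0.085 in CM1-dominant spots.

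Counts of members called moved too. Median-of-ratios gave 5 for day 7 against day 3. In CM4-dominant spots 0 were called with mt- genes kept, with haemoglobin genes also left out or with a pseudocount of 0.1, and 0 to 1 without 1 section. In FB-dominant spots 18 to 37 were called without 1 section. In EC-dominant spots the count was 0 with mt- genes kept, 13 with median-of-ratios, 0 with a pseudocount of 0.1, 1 with no filter, 5 with scores of at least 0.5 and 0 to 3 without 1 section. In EndoEC-dominant spots it was 15 with mt- genes kept, 16 with at least 40 spots and 13 to 34 without 1 section. The causes were not tested.

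In EC-dominant spots the calls over all genes were 305 higher and 15 lower with mt- genes kept. Of 1648 values of named members under alternatives, 63 lost and 9 gained a call, and 73 with no test moved by more than the spread. Among values with a call in either setting 0 changed sign. Sign changes of members without a call were not counted, and they occurred. Ndufa4l2 across days ran from -0.061 to 0.12. Leaving out detached spots was chosen after seeing the data.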
